A study of Mus musculus with 16 samples.

Results

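Messenger RNA levels were examined for 36 genes of the endoplasmic reticulum, the compartment in which hepatocytes fold the proteins they secrete, out of 55416 genes with deposited values. The genes were taken by name: chaperones, disulfide isomerases, parts of the translocon, retrieval receptors, parts of ER-associated degradation (ERAD) and the sensors of the unfolded protein response. They were chosen with earlier results of these data known, so their shares beside those of all tested genes may reflect that choice. All 36 were found, each under 1 mouse Ensembl identifier, and all 36 passed the filter on low values of at least 1 TPM, the length-corrected share of all transcripts of a sample, in at least 4 of 16 samples. Newly made chains enter this compartment through the SEC61 channel, are folded by HSP70 and HSP90 family chaperones, lectins and disulfide isomerases, and are sent back to the cytosol for destruction when folding fails. Unfolded chains are sensed by ATF6, IRE1 and PERK. ATF6 and the spliced form of XBP1, made by IRE1, are transcription factors that raise chaperone and ERAD genes. Saturated fatty acids such as palmitic acid are known to disturb the membrane of the compartment and to engage these sensors.

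The cells were mouse primary hepatocytes in 4 groups of 4 samples: HKO and FLOX cells, each given 0.4 mM palmitic acid or vehicle for 24 h. HKO cells were Alb-cre+, which places Cre recombinase under the albumin promoter, and FLOX cells were Alb-cre-. Per the series description, Smpd3, which encodes a neutral sphingomyelinase, was removed from hepatocytes by Cre and loxP. The labels do not state the age, sex or number of the mice, nor whether each sample of a group had its own mouse or culture. The p-values therefore speak only of how far these samples spread, and that spread may be technical.

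The number of reads behind a TPM value cannot be recovered, so sequencing depth was not known for any sample. Between 11231 and 11498 genes reached 1 TPM in a sample. Smpd3 stood at 6.44 to 9.15 TPM in HKO cells with palmitic acid, 42.5 to 47.8 TPM in FLOX cells with palmitic acid, 4.25 to 5.89 TPM in HKO cells with vehicle and 27.8 to 37.1 TPM in FLOX cells with vehicle, and every HKO sample lay below every FLOX sample. All 8 hepatocyte markers were detected. Their summed level was 45380 to 46770 TPM in HKO cells and 43630 to 45160 TPM in FLOX cells with palmitic acid, and 58870 to 60040 and 55640 to 56320 TPM with vehicle. Of the markers of other cells, Adgre1, Clec4f and Marco (macrophages), Pecam1 and Kdr (endothelium), Des, Acta2, Col1a1 and Lrat (stellate cells), Epcam (cholangiocytes), Ptprc, Cd3e and Cd79a (lymphocytes) and Jchain, Mzb1 and Pou2af1 (plasma cells) stayed under 1 TPM in every sample. FLOX vehicle replicate 1 differed from the others of its group across the 36 genes. Relative to the FLOX vehicle mean, the median of the 36 genes on the log2 scale was 0.075 in FLOX vehicle replicate 1, with 28 genes above the mean, while the other 3 samples lay at -0.029 to -0.021, with 10 to 11 genes above it. By this median FLOX palmitic acid replicate 1 stood less apart: its median was 0.27 with 30 genes above that mean, while the 3 remaining samples had 0.30 to 0.35 with 30 to 34. Among HKO samples with palmitic acid the medians were 0.30 to 0.43. Over all tested genes, 2726 were higher with palmitic acid in FLOX cells (limma adjusted p under 0.05). That count was 3464 without FLOX palmitic acid replicate 1 and 3095 without FLOX vehicle replicate 1.

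Most of the 36 genes rose with palmitic acid in both genotypes. In HKO cells 27 of 36 (75.0%) were higher and 1 was lower (limma adjusted p under 0.05), where 29.4% of all 11858 tested genes were higher and 13.1% lower. In FLOX cells 25 of 36 (69.4%) were higher and 1 was lower, where 23.0% of all tested genes were higher and 11.5% lower. The median log2 fold change of the 36 genes was 0.37 in HKO cells and 0.31 in FLOX cells, against 0.11 and 0.096 over all tested genes. All 25 genes that were higher in FLOX cells were among the 27 in HKO cells, and the other 2 were Derl1 and Dnajc3. Added up, the 36 genes held 3735 ± 74 TPM in HKO cells with palmitic acid, 3352 ± 47 TPM in FLOX cells with palmitic acid, 2557 ± 44 TPM in HKO cells with vehicle and 2562 ± 64 TPM in FLOX cells with vehicle. Each mean is given with its SD over n = 4 samples. In bulk samples, fewer cells of a type and less RNA per cell cannot be told apart, and a rise in TPM is a rise in share. Other markers moved with palmitic acid too. All 8 hepatocyte markers were lower in HKO cells and 7 of 8 in FLOX cells, and Cd68, the 1 macrophage marker tested, was higher (0.50 in HKO cells and 0.33 in FLOX cells). Of the cholangiocyte markers Sox9 was higher (0.62 and 0.41), and Krt19 (-1.02 and -0.67) and Krt7 (-0.99 and -1.38) were lower. The part of these markers in the rises was not tested. With median-ratio scaling of the samples, the median of all tested genes was 0.0056 in HKO cells and 0.0081 in FLOX cells, and 21 and 20 of the 36 genes were higher. Under that scaling the calls over all genes were 2103 higher and 2369 lower in HKO cells and 1647 higher and 1984 lower in FLOX cells, against 3491 higher and 1549 lower and 2726 higher and 1358 lower without it.

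**Figure D1:**
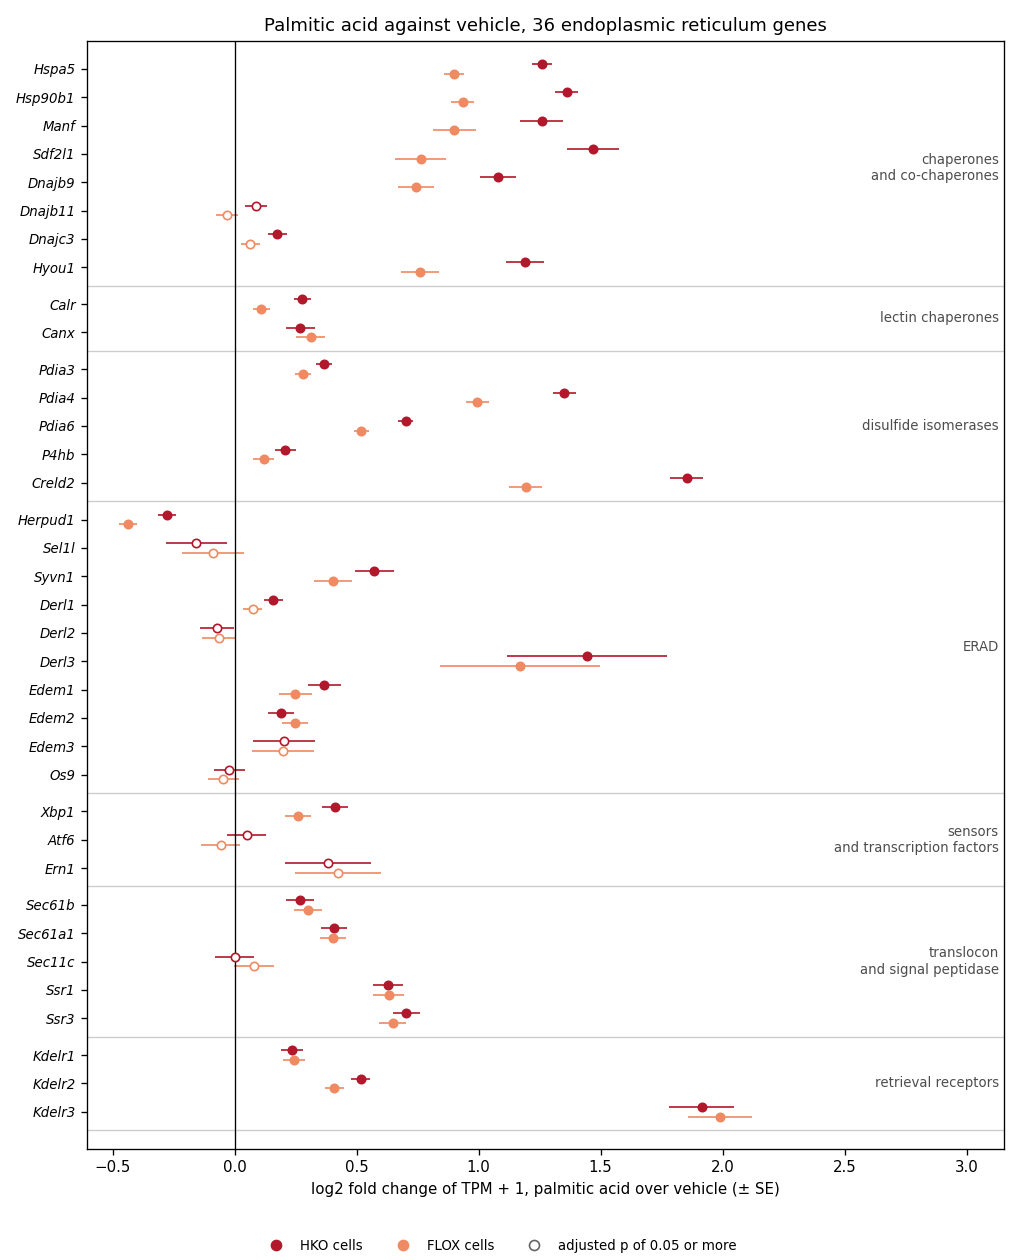
Log2 fold change of TPM + 1 with palmitic acid over vehicle for each of the 36 genes, grouped by role, with HKO cells (dark red) above FLOX cells (orange); bars are standard errors of the limma fit with 4 samples per group, and open circles mark an adjusted p of 0.05 or more. Kdelr3 lies farthest to the right in both genotypes, and Herpud1 fell in both genotypes.

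Among chaperones and co-chaperones, 7 of 8 rose in HKO cells and 6 of 8 in FLOX cells. Hspa5 encodes BiP, the HSP70 of the compartment, which binds nascent chains and holds the sensors inactive. It stood at 544, 563, 541 and 590.1 TPM in HKO cells and 457, 465, 427 and 470.3 TPM in FLOX cells with palmitic acid. Under vehicle Hspa5 read 234, 235, 245 and 219 TPM in HKO cells and 247, 244, 243 and 238 TPM in FLOX cells. The palmitic acid samples lay above all vehicle samples, and every HKO sample with palmitic acid lay above every FLOX sample with palmitic acid. The log2 fold change with palmitic acid was 1.26 ± 0.04 in HKO cells (limma adjusted p = 4.2e-12) and 0.90 ± 0.04 in FLOX cells (limma adjusted p = 1.89e-10), which is 2.40-fold and 1.87-fold in mean TPM. Hsp90b1, which encodes the HSP90 chaperone GRP94, held 232, 237, 234 and 253 TPM in HKO cells and 185, 196, 181 and 197 TPM in FLOX cells with palmitic acid. Under vehicle Hsp90b1 read 87.7, 94.9, 95.2 and 91.9 TPM in HKO cells and 108, 97.1, 94.7 and 95.8 TPM in FLOX cells. It followed the same order as Hspa5, without overlap between the palmitic acid groups, and its log2 fold change was 1.36 ± 0.047 in HKO cells (limma adjusted p = 9.27e-12) and 0.93 ± 0.047 in FLOX cells (limma adjusted p = 6.89e-10).

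Hyou1, a large HSP70 relative that exchanges nucleotide on BiP, stood at 26.3, 28.7, 26.9 and 28.4 TPM in HKO cells and 19.5, 23.1, 22.7 and 22.2 TPM in FLOX cells with palmitic acid. Under vehicle Hyou1 read 10.9, 11.7, 11.5 and 11.9 TPM in HKO cells and 14.9, 12.2, 10.7 and 12.4 TPM in FLOX cells. Both palmitic acid groups lay above both vehicle groups, and FLOX replicate 1 was the lowest of its group with palmitic acid and the highest with vehicle. The log2 fold change of Hyou1 was 1.19 ± 0.078 in HKO cells (limma adjusted p = 1.14e-08) and 0.76 ± 0.078 in FLOX cells (limma adjusted p = 2.15e-06). For Sdf2l1, a stress-induced partner of the co-chaperone DNAJB11, the samples read 29.9, 27.8, 29.3 and 32.0 TPM in HKO cells and 22.3, 18.9, 18.4 and 21.0 TPM in FLOX cells with palmitic acid. Under vehicle Sdf2l1 read 11.6, 11.5, 9.18 and 8.43 TPM in HKO cells and 10.1, 11.0, 13.9 and 11.0 TPM in FLOX cells. The vehicle groups overlapped, and the HKO samples with palmitic acid lay above all other samples. Sdf2l1 changed by 1.47 ± 0.10 in HKO cells (limma adjusted p = 2.8e-08) and 0.76 ± 0.10 in FLOX cells (limma adjusted p = 4.43e-05) on the log2 scale. The J-domain co-chaperone Dnajb9, which acts on BiP and restrains IRE1, had 33.9, 39.2, 36.1 and 41.8 TPM in HKO cells and 25.1, 26.9, 29.4 and 27.1 TPM in FLOX cells with palmitic acid. Under vehicle Dnajb9 read 16.7, 19.0, 16.9 and 16.6 TPM in HKO cells and 17.4, 14.4, 15.3 and 16.2 TPM in FLOX cells. It rose by 1.08 ± 0.073 in HKO cells (limma adjusted p = 1.7e-08) and 0.74 ± 0.073 in FLOX cells (limma adjusted p = 1.4e-06). Manf, a secreted protein retained by BiP, read 173, 170.4, 156 and 201 TPM in HKO cells and 148, 152, 142 and 154 TPM in FLOX cells with palmitic acid. Under vehicle Manf read 73.8, 75.2, 74.8 and 65.8 TPM in HKO cells and 68.8, 88.2, 90.5 and 72.1 TPM in FLOX cells. Manf rose by 1.26 ± 0.088 in HKO cells (limma adjusted p = 2.1e-08) and 0.90 ± 0.088 in FLOX cells (limma adjusted p = 1.2e-06). Its palmitic acid groups did not overlap each other, and its vehicle groups did.

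The remaining co-chaperones, 2 in number, changed by little or not detectably. Dnajc3, an inhibitor of eIF2α kinases first described as P58IPK, averaged 39.4 ± 0.38 TPM in HKO cells with palmitic acid and 34.8 ± 0.78 TPM with vehicle, a log2 fold change of 0.17 ± 0.039 (limma adjusted p = 0.00189). In FLOX cells Dnajc3 averaged 38.6 ± 1.1 and 36.9 ± 1.7 TPM, and the change of 0.065 ± 0.039 did not pass the threshold (limma adjusted p = 0.205). Dnajb11, the J-domain partner that hands unfolded chains to BiP, averaged 43.6 ± 1.8 TPM in HKO cells with palmitic acid and 40.9 ± 1.4 with vehicle, and 42.6 ± 2.5 and 43.5 ± 0.72 TPM in FLOX cells. Its log2 fold changes were 0.089 ± 0.045 in HKO cells (limma adjusted p = 0.125) and -0.03 ± 0.045 in FLOX cells (limma adjusted p = 0.638). The rise of Dnajc3 in HKO cells was lost with median-ratio scaling (0.055, limma adjusted p = 0.311) and with quantile normalization (0.068, limma adjusted p = 0.127).

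All 5 disulfide isomerases and both lectin chaperones rose in each genotype, over a wide range. Creld2, a small stress-induced protein with isomerase activity, stood at 67.7, 64.3, 64.6 and 73.3 TPM in HKO cells and 50.8, 47.6, 42.9 and 52.2 TPM in FLOX cells with palmitic acid. Under vehicle Creld2 read 19.3, 18.8, 16.6 and 17.2 TPM in HKO cells and 22.2, 20.5, 20.2 and 19.4 TPM in FLOX cells. Every palmitic acid sample lay above every vehicle sample, with HKO above FLOX samples under palmitic acid and below them, narrowly, under vehicle. The log2 fold change of Creld2 was 1.85 ± 0.068 in HKO cells (limma adjusted p = 2.1e-11) and 1.19 ± 0.068 in FLOX cells (limma adjusted p = 2.96e-09). Pdia4, which encodes the isomerase ERp72, had 86.9, 90.3, 86.2 and 92.3 TPM in HKO cells and 72.0, 72.0, 69.2 and 74.9 TPM in FLOX cells with palmitic acid. Under vehicle Pdia4 read 33.1, 34.8, 36.1 and 33.1 TPM in HKO cells and 39.2, 35.3, 34.2 and 34.0 TPM in FLOX cells. None of the HKO samples with palmitic acid overlapped the FLOX samples with palmitic acid. Pdia4 rose by 1.35 ± 0.048 in HKO cells (limma adjusted p = 1.47e-11) and 0.99 ± 0.048 in FLOX cells (limma adjusted p = 5.09e-10). The more abundant isomerases changed less. Pdia6 rose by 0.70 ± 0.03 in HKO cells (limma adjusted p = 9.26e-11) and 0.52 ± 0.03 in FLOX cells (limma adjusted p = 3.96e-09). Pdia3, the partner of calnexin and calreticulin, rose by 0.37 ± 0.033 in HKO cells (limma adjusted p = 4.23e-07) and 0.28 ± 0.033 in FLOX cells (limma adjusted p = 1.04e-05). P4hb, the classical protein disulfide isomerase, rose by 0.21 ± 0.043 in HKO cells (limma adjusted p = 0.00105) and 0.12 ± 0.043 in FLOX cells (limma adjusted p = 0.0414).

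Calr, the soluble lectin calreticulin, read 324, 319, 302 and 303 TPM in HKO cells and 303, 285, 286 and 284 TPM in FLOX cells with palmitic acid. Under vehicle Calr read 246, 265, 259.8 and 258 TPM in HKO cells and 275, 269.6, 262 and 266 TPM in FLOX cells. Its samples with palmitic acid lay above its samples with vehicle in both genotypes, by 21.3% of mean TPM in HKO cells and 7.98% in FLOX cells, and the log2 fold changes were 0.28 ± 0.034 in HKO cells (limma adjusted p = 9.26e-06) and 0.11 ± 0.034 in FLOX cells (limma adjusted p = 0.0202). Canx, the membrane-bound lectin calnexin, rose by 0.27 ± 0.059 in HKO cells (limma adjusted p = 0.00185) and 0.31 ± 0.059 in FLOX cells (limma adjusted p = 0.000804). The calls of Calr and P4hb in FLOX cells depended on single samples and settings. The call of Calr ended without FLOX vehicle replicate 3 (limma adjusted p = 0.0594) or replicate 4 (0.0506), and its log2 fold change was 0.010 with median-ratio scaling (limma adjusted p = 0.885). The call of P4hb ended without FLOX palmitic acid replicate 2, 3 or 4, without FLOX vehicle replicate 3 or 4, and without HKO replicate 3 of either treatment (limma adjusted p = 0.0505 to 0.137), and with median-ratio scaling its change was 0.086 in HKO cells (0.147) and 0.019 in FLOX cells (0.783).

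**Figure D2:**
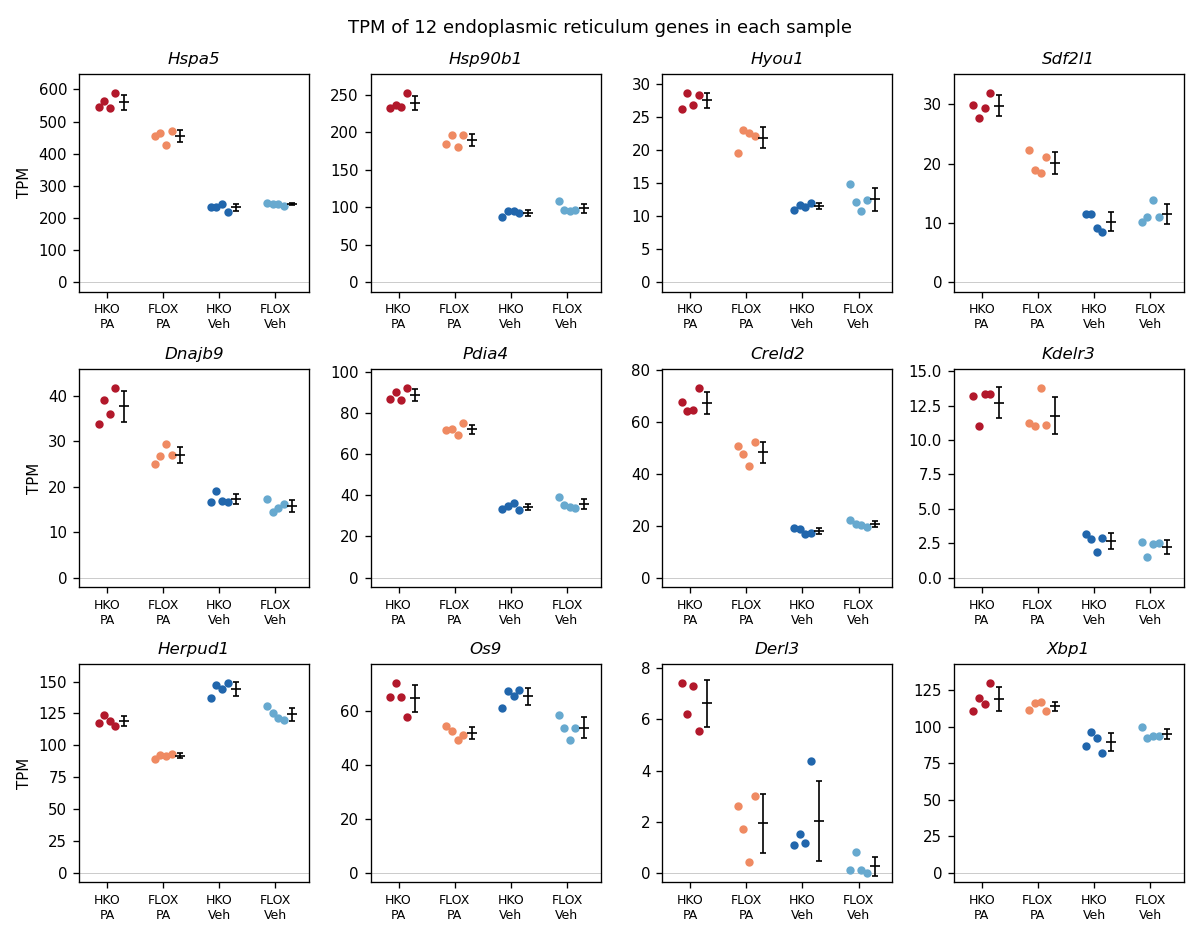
TPM of 12 of the genes in each of the 16 samples (dots), with the mean and SD of each group of 4 beside them (black), on linear axes; PA is palmitic acid and Veh is vehicle. Hspa5, Hsp90b1, Pdia4 and Creld2 are highest in HKO cells with palmitic acid, Kdelr3 is alike in the 2 palmitic acid groups, and Herpud1 is lowest in FLOX cells with palmitic acid.

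The retrieval receptors return escaped chaperones that carry a KDEL-type tail from the Golgi. Kdelr3 stood at 13.2, 11.0, 13.3 and 13.3 TPM in HKO cells and 11.2, 11.0, 13.8 and 11.1 TPM in FLOX cells with palmitic acid. Under vehicle Kdelr3 read 3.16, 2.82, 1.84 and 2.85 TPM in HKO cells and 2.55, 1.48, 2.42 and 2.50 TPM in FLOX cells. It had the largest log2 fold change of TPM + 1 of the 36 genes in each genotype, and the 2 genotypes overlapped under either treatment. The log2 fold change of TPM + 1, which understates changes of low genes, was 1.91 ± 0.13 in HKO cells (limma adjusted p = 2.1e-08) and 1.99 ± 0.13 in FLOX cells (limma adjusted p = 1.72e-08), and the ratio of mean TPM was 4.77-fold and 5.26-fold. Kdelr2, at a higher level, rose by 0.52 ± 0.038 in HKO cells (limma adjusted p = 3.27e-08) and 0.41 ± 0.038 in FLOX cells (limma adjusted p = 6.12e-07). Kdelr1, the most abundant receptor in TPM, rose by 0.23 ± 0.046 in HKO cells (limma adjusted p = 0.000686) and 0.24 ± 0.046 in FLOX cells (limma adjusted p = 0.000687), and both of its calls ended with median-ratio scaling (limma adjusted p = 0.116 and 0.0547).

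Of the 5 translocon and signal peptidase genes, 4 rose in each genotype by nearly equal amounts. Sec61a1, the pore of the channel, rose by 0.41 ± 0.053 in HKO cells (limma adjusted p = 1.65e-05) and 0.40 ± 0.053 in FLOX cells (limma adjusted p = 2.52e-05). Ssr1 and Ssr3, subunits of the translocon-associated protein complex, rose by 0.63 ± 0.062 and 0.70 ± 0.054 in HKO cells and by 0.63 ± 0.062 and 0.65 ± 0.054 in FLOX cells (limma adjusted p = 9.62e-07, 6.23e-08, 1.26e-06 and 2.24e-07). Sec61b, the small β subunit, held 179, 188, 188 and 203 TPM in HKO cells and 195, 197, 209 and 199 TPM in FLOX cells with palmitic acid. Under vehicle Sec61b read 169, 166, 159 and 137 TPM in HKO cells and 164, 165, 156 and 164 TPM in FLOX cells. Palmitic acid samples lay above vehicle samples in both genotypes, and the change was 0.27 ± 0.056 in HKO cells (limma adjusted p = 0.00117) and 0.30 ± 0.056 in FLOX cells (limma adjusted p = 0.000638); with median-ratio scaling it was 0.15 in HKO cells (limma adjusted p = 0.0665). Sec11c, a catalytic subunit of signal peptidase, had 27.1, 25.4, 27.3 and 31.1 TPM in HKO cells and 21.8, 26.6, 25.7 and 27.1 TPM in FLOX cells with palmitic acid. Under vehicle Sec11c read 28.5, 25.4, 29.9 and 27.1 TPM in HKO cells and 24.4, 21.8, 26.6 and 22.7 TPM in FLOX cells. All 4 groups of Sec11c overlapped, and its changes of 0.00023 ± 0.081 in HKO cells and 0.079 ± 0.081 in FLOX cells did not pass the threshold (limma adjusted p = 0.999 and 0.477).

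ERAD genes rose or gave no call, apart from Herpud1, which fell in both genotypes. Of 10 tested, 5 were higher and 1 lower with palmitic acid in HKO cells, where 29.4% of all tested genes were higher and 13.1% lower. In FLOX cells 4 were higher and 1 lower, where 23.0% of all tested genes were higher and 11.5% lower. Herpud1, a membrane scaffold of the HRD1 ubiquitin ligase that is itself a known stress target, stood at 117, 124, 119 and 115 TPM in HKO cells and 89.1, 92.6, 91.6 and 93.5 TPM in FLOX cells with palmitic acid. Under vehicle Herpud1 read 137, 148, 144 and 149 TPM in HKO cells and 131, 125, 122 and 119.6 TPM in FLOX cells. Within each genotype the palmitic acid samples lay below all vehicle samples, so this gene ran against the chaperones. Herpud1 fell by 0.28 ± 0.038 on the log2 scale in HKO cells (limma adjusted p = 2.47e-05) and by 0.44 ± 0.038 in FLOX cells (limma adjusted p = 3.09e-07). Syvn1, the ligase HRD1, rose by 0.57 ± 0.079 in HKO cells (limma adjusted p = 3e-05) and 0.40 ± 0.079 in FLOX cells (limma adjusted p = 0.00103). Its adaptor Sel1l had 14.2, 12.9, 12.5 and 11.5 TPM in HKO cells and 9.78, 13.8, 15.2 and 12.8 TPM in FLOX cells with palmitic acid. Under vehicle Sel1l read 13.4, 14.9, 14.9 and 14.1 TPM in HKO cells and 17.6, 13.2, 11.1 and 13.3 TPM in FLOX cells. Those groups overlapped, FLOX replicate 1 was the lowest with palmitic acid and the highest with vehicle, and the changes of -0.16 ± 0.13 in HKO cells and -0.088 ± 0.13 in FLOX cells did not pass the threshold (limma adjusted p = 0.341 and 0.622).

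The EDEM proteins trim mannose from misfolded glycoproteins. Edem1 stood at 24.7, 27.9, 24.7 and 27.4 TPM in HKO cells and 24.4, 23.3, 23.2 and 22.9 TPM in FLOX cells with palmitic acid. Under vehicle Edem1 read 19.6, 21.6, 19.7 and 19.2 TPM in HKO cells and 20.4, 17.7, 22.3 and 18.2 TPM in FLOX cells. Every palmitic acid sample lay above the vehicle samples of its own genotype, and Edem1 rose by 0.37 ± 0.068 in HKO cells (limma adjusted p = 0.000462) and 0.25 ± 0.068 in FLOX cells (limma adjusted p = 0.0105). Edem2 rose by 0.19 ± 0.053 in HKO cells (limma adjusted p = 0.00914) and 0.25 ± 0.053 in FLOX cells (limma adjusted p = 0.00209). In FLOX cells the call of Edem1 ended with median-ratio scaling (0.15, limma adjusted p = 0.124), and that of Edem2 ended with it in both genotypes (limma adjusted p = 0.361 in HKO cells and 0.0611 in FLOX cells). Edem3 changed by 0.20 ± 0.13 in HKO cells and 0.20 ± 0.13 in FLOX cells and missed the threshold (limma adjusted p = 0.216 and 0.238). Without FLOX palmitic acid replicate 1 Edem3 passed it in FLOX cells (0.33, limma adjusted p = 0.0227), and without both FLOX samples numbered 1 it passed it in both, at 0.20 in HKO cells and 0.43 in FLOX cells (limma adjusted p = 0.0369 and 0.0012). The lectin Os9, which hands glycoproteins to SEL1L, read 65.0, 70.2, 64.9 and 57.8 TPM in HKO cells and 54.5, 52.5, 49.3 and 51.1 TPM in FLOX cells with palmitic acid. Under vehicle Os9 read 61.0, 67.5, 65.3 and 67.8 TPM in HKO cells and 58.5, 53.4, 49.0 and 53.5 TPM in FLOX cells. It did not differ detectably by treatment, with -0.021 ± 0.062 in HKO cells and -0.046 ± 0.062 in FLOX cells (limma adjusted p = 0.811 and 0.595), while its HKO samples lay above its FLOX samples within each treatment.

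Derlins form part of the exit channel. Derl3, the low-level member, stood at 7.43, 6.20, 7.33 and 5.56 TPM in HKO cells and 2.62, 1.72, 0.41 and 3.00 TPM in FLOX cells with palmitic acid. Under vehicle Derl3 read 1.08, 1.5, 1.16 and 4.38 TPM in HKO cells and 0.10, 0.80, 0.09 and 0.00 TPM in FLOX cells. FLOX vehicle replicate 4 was listed at 0, the FLOX groups overlapped between treatments, and HKO vehicle replicate 4 lay above the other 3 of its group. The log2 fold change of TPM + 1 was 1.45 ± 0.33 in HKO cells (limma adjusted p = 0.00226) and 1.17 ± 0.33 in FLOX cells (limma adjusted p = 0.0117), and the ratio of mean TPM was 3.27-fold and 7.83-fold, the second over a mean below 1 TPM. Without both FLOX samples numbered 1 the log2 value in FLOX cells was 0.99 (limma adjusted p = 0.0548). Derl1 rose in HKO cells by 0.16 ± 0.04 (limma adjusted p = 0.00489), a call that ended with median-ratio scaling (0.039, limma adjusted p = 0.543), and changed by 0.074 ± 0.04 in FLOX cells (limma adjusted p = 0.166). Derl2 changed by -0.072 ± 0.068 in HKO cells and -0.066 ± 0.068 in FLOX cells (limma adjusted p = 0.424 and 0.48).

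Of the sensors and transcription factors, Xbp1 alone passed the threshold. Xbp1, whose mRNA IRE1 splices into its active form, had 111, 119.7, 116 and 129.8 TPM in HKO cells and 111, 116, 117 and 111 TPM in FLOX cells with palmitic acid. Under vehicle Xbp1 read 86.8, 96.3, 92.1 and 81.9 TPM in HKO cells and 99.9, 92.3, 93.7 and 93.2 TPM in FLOX cells. Palmitic acid samples lay above vehicle samples in each genotype, and the total Xbp1 transcript rose by 0.41 ± 0.054 in HKO cells (limma adjusted p = 1.78e-05) and 0.26 ± 0.054 in FLOX cells (limma adjusted p = 0.00151). Gene-level TPM does not separate the spliced from the unspliced form. Atf6, cleaved in the Golgi to give a transcription factor, read 11.98, 13.6, 12.9 and 12.6 TPM in HKO cells and 8.87, 11.1, 11.5 and 10.9 TPM in FLOX cells with palmitic acid. Under vehicle Atf6 read 11.3, 13.3, 12.9 and 11.8 TPM in HKO cells and 12.1, 11.0, 10.04 and 11.0 TPM in FLOX cells. Its groups overlapped between treatments, with changes of 0.05 ± 0.08 in HKO cells and -0.057 ± 0.08 in FLOX cells (limma adjusted p = 0.648 and 0.617). With quantile normalization Atf6 was lower in FLOX cells (-0.16, limma adjusted p = 0.0333). Ern1, which encodes IRE1α, the kinase and nuclease that splices Xbp1, stood at 9.47, 14.1, 9.97 and 11.1 TPM in HKO cells and 7.26, 10.3, 7.89 and 9.41 TPM in FLOX cells with palmitic acid. Under vehicle Ern1 read 9.06, 11.4, 8.22 and 5.29 TPM in HKO cells and 7.29, 6.46, 5.19 and 5.93 TPM in FLOX cells. Its spread was wide, and the changes of 0.38 ± 0.18 in HKO cells and 0.42 ± 0.18 in FLOX cells missed the threshold (limma adjusted p = 0.0944 and 0.0739). Ern1 passed it in HKO cells without HKO vehicle replicate 2 (0.53, limma adjusted p = 0.0229) and in FLOX cells without FLOX palmitic acid replicate 1 (0.50, limma adjusted p = 0.0474), or without HKO vehicle replicate 2 (0.0488) or 4 (0.0272).

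The next comparison sets HKO against FLOX cells. HKO cells carried Cre and FLOX cells did not, so the loss of Smpd3 and the presence of Cre cannot be told apart. With palmitic acid, 12 of 36 (33.3%) were higher in HKO than in FLOX cells and 0 were lower (limma adjusted p under 0.05), where 4.24% of all tested genes were higher and 5.50% lower (9.74% in all). For 15 of the 36 genes every HKO sample lay above every FLOX sample and for 0 genes below, where 6.11% and 7.83% of all tested genes did so. The median log2 difference was 0.12 over the 36 genes and -0.0077 over all tested genes. With vehicle, 3 of 36 (8.33%) were higher in HKO cells and 0 lower, where 4.11% of all tested genes were higher and 7.56% lower, and the median was -0.017 against -0.023 over all tested genes. For 3 genes every HKO vehicle sample lay above every FLOX vehicle sample and for 2, Creld2 and Pdia6, below, where 6.06% and 11.7% of all tested genes did so. The genes called with vehicle were Herpud1, Os9 and Derl3, all of ERAD, and all 3 were also called with palmitic acid. At an unadjusted p below 0.05, 18 of the 36 genes were higher and 0 lower in HKO cells with palmitic acid, where 9.99% of all tested genes were higher and 12.4% lower. With vehicle that count was 5 higher and 2 lower (Pdia3 and Creld2), where 8.44% of all tested genes were higher and 16.1% lower.

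**Figure D3:**
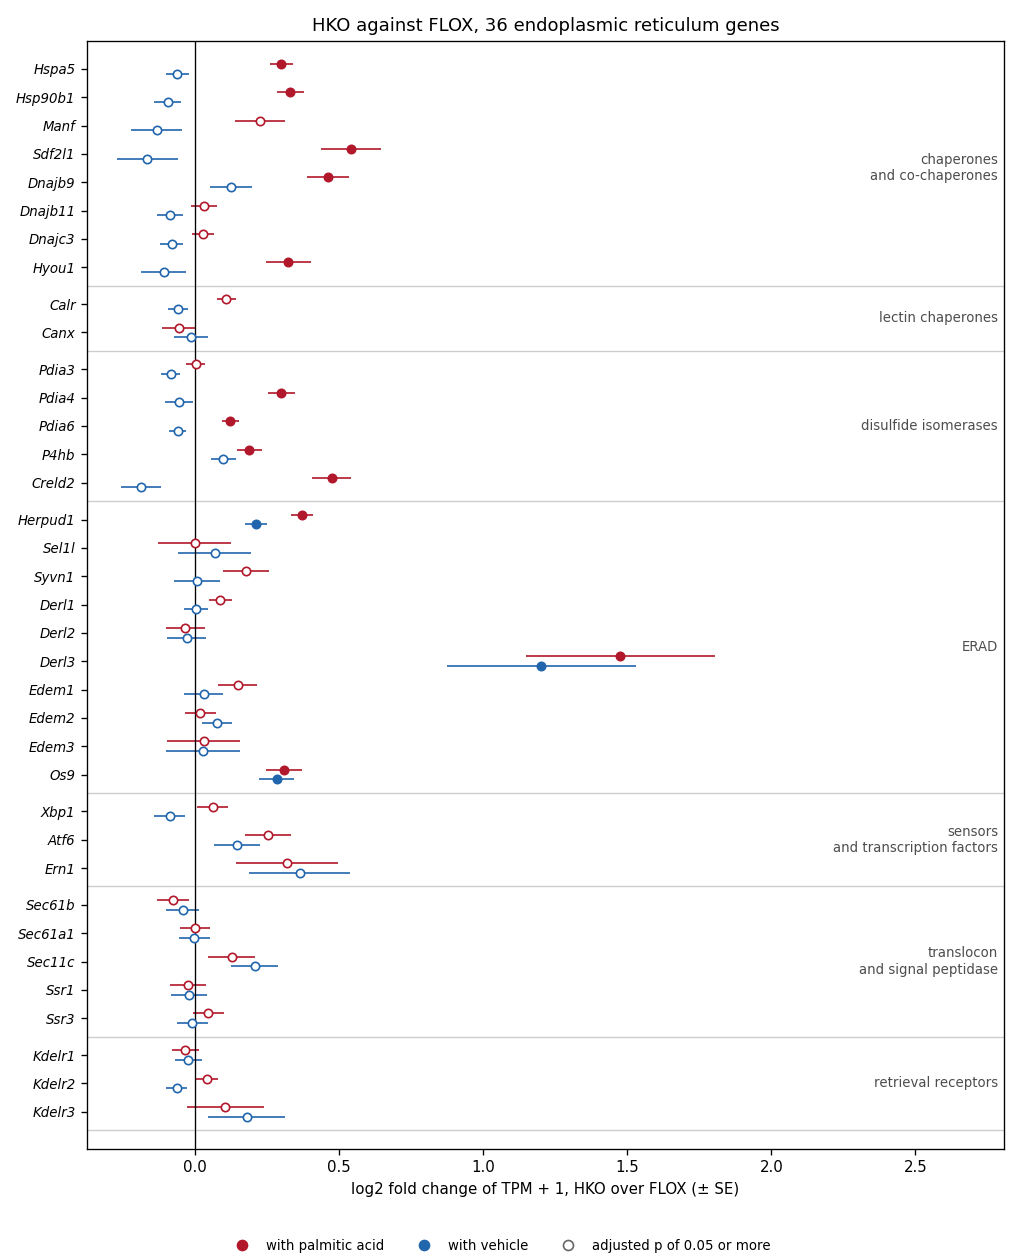
Log2 fold change of TPM + 1 in HKO over FLOX cells for each of the 36 genes, with palmitic acid (red) above vehicle (blue); bars are standard errors of the limma fit with 4 samples per group, and open circles mark an adjusted p of 0.05 or more. Filled red points are found among chaperones, isomerases and ERAD genes, and filled blue points at Herpud1, Derl3 and Os9.

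The 9 genes called with palmitic acid and not with vehicle were Hspa5, Hsp90b1, Hyou1, Sdf2l1, Dnajb9, Pdia4, Pdia6, P4hb and Creld2, all of which also rose with palmitic acid in both genotypes. Hspa5 averaged 559.5 ± 23 TPM in HKO cells and 455 ± 19 TPM in FLOX cells with palmitic acid, a log2 difference of 0.30 ± 0.04 (limma adjusted p = 0.000109). With vehicle it averaged 233 ± 11 and 243 ± 3.8 TPM, a difference of -0.062 ± 0.04 (limma adjusted p = 0.38). Sdf2l1 averaged 29.7 ± 1.7 and 20.2 ± 1.8 TPM in HKO and FLOX cells with palmitic acid, the largest difference of the 9 at 0.54 ± 0.10 (limma adjusted p = 0.00336). With vehicle its difference was -0.17 ± 0.10 (limma adjusted p = 0.377). Creld2 and Dnajb9 differed by 0.47 ± 0.068 and 0.46 ± 0.073 with palmitic acid (limma adjusted p = 0.000229 and 0.000616), and by -0.19 ± 0.068 and 0.12 ± 0.073 with vehicle (limma adjusted p = 0.0935 and 0.329). Hsp90b1, Hyou1 and Pdia4 differed by 0.33 ± 0.047, 0.32 ± 0.078 and 0.30 ± 0.048 with palmitic acid (limma adjusted p = 0.000199, 0.0147 and 0.000678). With vehicle they differed by -0.095, -0.109 and -0.056 (0.226, 0.444 and 0.539). P4hb differed by 0.19 ± 0.043 and Pdia6 by 0.12 ± 0.03 with palmitic acid (limma adjusted p = 0.00968 and 0.0171), and by 0.099 and -0.06 with vehicle (0.159 and 0.247). A call under 1 treatment only does not show that the difference changed with treatment. For P4hb the interaction was 0.089 ± 0.06 (limma adjusted p = 0.797). The call of Pdia6 ended without HKO palmitic acid replicate 2 (limma adjusted p = 0.0514), without FLOX palmitic acid replicate 3 (0.0594) and with median-ratio scaling (0.0649).

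The 3 ERAD genes were higher in HKO cells under both treatments. Herpud1 averaged 119 ± 3.8 TPM in HKO cells and 91.7 ± 1.9 TPM in FLOX cells with palmitic acid, and 144 ± 5.3 and 124 ± 5.0 TPM with vehicle. Its log2 differences were 0.37 ± 0.038 with palmitic acid and 0.21 ± 0.038 with vehicle (limma adjusted p = 6.74e-06 and 0.00146). Os9 differed by 0.31 ± 0.062 with palmitic acid and 0.28 ± 0.062 with vehicle (limma adjusted p = 0.00437 and 0.00714), without overlap between HKO and FLOX samples. Derl3 differed by 1.48 ± 0.33 with palmitic acid (limma adjusted p = 0.00862), where all HKO samples lay above all FLOX samples; with a pseudocount of 0.1 the difference was 1.998 (0.064). With vehicle Derl3 differed by 1.20 ± 0.33 (limma adjusted p = 0.026), and without HKO vehicle replicate 4 the difference was 0.89 (limma adjusted p = 0.0745). That call also ended without FLOX vehicle replicate 1 (0.0584), 3 (0.0655) or 4 (0.0751). Calr, with a difference of 0.11 ± 0.034 under palmitic acid, missed the threshold (limma adjusted p = 0.0572) and passed it without FLOX palmitic acid replicate 1 (0.13, limma adjusted p = 0.0232), HKO palmitic acid replicate 3 (0.0486) or 4 (0.0499), or HKO vehicle replicate 1 (0.0497). Atf6 differed by 0.25 ± 0.08 with palmitic acid, with every HKO sample above every FLOX sample, and missed the threshold (limma adjusted p = 0.0613), which it passed with median-ratio scaling (0.26, limma adjusted p = 0.00979). Ern1 passed the threshold with vehicle when HKO vehicle replicate 4 was left out (0.55, limma adjusted p = 0.0324). The translocon genes and the 3 retrieval receptors gave no call between genotypes, and their differences with palmitic acid ran from -0.076 to 0.13.

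Of the tested markers of other cells, Cd68 was called higher in HKO cells with palmitic acid (0.47) and with vehicle (0.29). No tested endothelial, cholangiocyte or plasma cell marker was called with palmitic acid. With vehicle 1 of 2 endothelial markers was higher, and of 3 cholangiocyte markers 1 was higher and 1 lower. Of 8 hepatocyte markers, 4 were higher and 2 lower under each treatment. Over all tested genes, 4.24% were higher and 5.50% lower with palmitic acid, and 4.11% and 7.56% with vehicle. The summed level of the 5 macrophage markers was 80.9 to 107 TPM in HKO cells with palmitic acid and 55.5 to 68.1 TPM in FLOX cells with palmitic acid, and 60.3 to 69.6 and 48.4 to 55.02 TPM with vehicle, nearly all of it Cd68, while Adgre1, Clec4f and Marco stayed under 1 TPM. The summed plasma cell markers were 95.0 to 109 TPM in HKO cells and 101 to 108 TPM in FLOX cells with palmitic acid, nearly all of it Sdc1, with Jchain, Mzb1 and Pou2af1 under 1 TPM. The 5 stellate cell markers summed to 0.35 to 0.63 TPM in HKO cells and 0.63 to 1.38 TPM in FLOX cells with palmitic acid. The 4 endothelial markers summed to 2.92 to 3.65 TPM in HKO cells and 1.70 to 3.12 TPM in FLOX cells with palmitic acid, the 4 cholangiocyte markers to 39.5 to 44.9 and 36.4 to 43.9 TPM (with vehicle 35.8 to 37.6 and 34.8 to 39.8 TPM), and the 3 lymphocyte markers to at most 0.46 and 0.10 TPM. The part of these levels in the differences between genotypes was not tested.

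The interaction asks whether palmitic acid changed a gene more in HKO than in FLOX cells. Of the 36 genes 4 (11.1%) responded more in HKO cells and 0 less (limma adjusted p under 0.05), where 0.152% of all tested genes (18 of 11858) had a larger and 0.0422% a smaller response. These 4 were Hspa5, Hsp90b1, Pdia4 and Creld2. At an unadjusted p below 0.05 there were 11 of 36 genes with a larger response in HKO cells and 0 with a smaller one, where 5.22% and 2.31% of all tested genes passed it. The difference in response was 0.36 ± 0.056 for Hspa5 (limma adjusted p = 0.015), 0.43 ± 0.066 for Hsp90b1 (0.015), 0.66 ± 0.10 for Creld2 (0.0115) and 0.36 ± 0.068 for Pdia4 (0.0497). Pdia4 lay at the edge of the threshold, and leaving out any 1 of the 16 samples ended its call (limma adjusted p = 0.0617 to 0.135). The calls of the other 3 held without any 1 sample and without both FLOX samples numbered 1. With the replicate number within each genotype as a block, all 4 calls ended (limma adjusted p = 0.111 to 0.348). With median-ratio scaling Hspa5 missed the threshold (0.34, limma adjusted p = 0.103), and without a mean-variance trend both Hspa5 (0.0831) and Hsp90b1 (0.0801) did. Sdf2l1 had the largest difference of the 36, 0.71 ± 0.15, and missed the threshold (limma adjusted p = 0.0765). Hyou1, Manf and Dnajb9 also missed it, with differences of 0.43 ± 0.11, 0.36 ± 0.12 and 0.34 ± 0.10 (limma adjusted p = 0.223, 0.427 and 0.334).

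Between roles the difference in response was uneven. All 8 chaperones and co-chaperones and all 5 disulfide isomerases had a positive difference, with medians of 0.36 and 0.18, while the medians of the 5 translocon and signal peptidase genes and the 3 retrieval receptors were -0.0041 and -0.0094, against 0.015 over all tested genes. Kdelr3, with the largest log2 fold change of TPM + 1 in each genotype, had a difference of -0.075 ± 0.19 (limma adjusted p = 0.974). Genes are not independent replicates; as a description over the 36, the responses of HKO and FLOX cells, which have no sample in common, correlated at r = 0.953 (Spearman rho = 0.971). Without both FLOX samples numbered 1, the median response of the 36 genes in FLOX cells was 0.40 in place of 0.31, 26 were higher, and the median difference in response was 0.084 in place of 0.11.

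Genes of the same pathways outside the 36 were counted in the same way. Of all tested genes, 29.4% were higher and 13.1% lower with palmitic acid in HKO cells, and 23.0% and 11.5% in FLOX cells. Between genotypes 4.24% were higher and 5.50% lower in HKO cells with palmitic acid, and 4.11% and 7.56% with vehicle. Of 40 other genes of folding and transport, 21 (52.5%) were higher and 0 lower with palmitic acid in HKO cells. In FLOX cells 16 (40.0%) were higher and 0 lower. The medians were 0.14 in both, close to the 0.11 and 0.096 of all tested genes. Fkbp11, a prolyl isomerase of secretory cells, rose by 1.08 ± 0.067 in HKO cells (limma adjusted p = 5.85e-09) and 0.99 ± 0.067 in FLOX cells (limma adjusted p = 1.87e-08). The thioredoxin domain protein Txndc5 rose by 0.64 ± 0.05 in HKO cells (limma adjusted p = 7.7e-08) and 0.58 ± 0.05 in FLOX cells (limma adjusted p = 2.88e-07), and the vesicle coat subunit Sec24d by 0.56 ± 0.10 in HKO cells (limma adjusted p = 0.0003) and 0.68 ± 0.10 in FLOX cells (limma adjusted p = 7.11e-05). Between genotypes with palmitic acid 1 of the 40 was higher in HKO cells, the oxidase Ero1b (0.29 ± 0.078, listed as Ero1lb, limma adjusted p = 0.0271), and 2 were lower, Sec61g (-0.29 ± 0.078, limma adjusted p = 0.0254) and Pdia5 (-0.17 ± 0.048, limma adjusted p = 0.0337). With vehicle 0 were higher and 3 lower, namely Ssr2, Pdia5 and Ppib.

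Of 23 other ERAD genes, 13 (56.5%) were higher and 1 (4.35%) lower with palmitic acid in HKO cells, against 29.4% and 13.1% of all tested genes. In FLOX cells 9 (39.1%) were higher and 1 (4.35%) lower, against 23.0% and 11.5%. Selenos, a membrane selenoprotein that recruits the p97 ATPase, rose by 0.57 ± 0.049 in HKO cells and 0.43 ± 0.049 in FLOX cells (limma adjusted p = 1.8e-07 and 4.92e-06), and the ubiquitin-conjugating enzyme Ube2j1 by 0.55 ± 0.047 in HKO cells and 0.45 ± 0.047 in FLOX cells (limma adjusted p = 1.98e-07 and 2.68e-06). The ligase Rnf5 was lower, at -0.24 ± 0.052 in HKO cells and -0.33 ± 0.052 in FLOX cells (limma adjusted p = 0.00148 and 0.000161). Selenok was higher in HKO than in FLOX cells with palmitic acid (0.29 ± 0.064, limma adjusted p = 0.00764) and with vehicle (0.23 ± 0.064, limma adjusted p = 0.0277), and Faf2 was lower with vehicle (-0.21 ± 0.05, limma adjusted p = 0.0113).

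The PERK arm and the targets of its transcription factor ATF4 moved in both directions with palmitic acid. Of 16 genes, 8 were higher and 4 lower in HKO cells, and 5 were higher and 5 lower in FLOX cells. Ddit3, the stress factor CHOP, stood at 40.8, 34.4, 29.7 and 48.9 TPM in HKO cells and 27.2, 26.0, 26.6 and 27.4 TPM in FLOX cells with palmitic acid. Under vehicle Ddit3 read 13.3, 11.4, 13.5 and 13.9 TPM in HKO cells and 12.5, 14.04, 11.8 and 10.6 TPM in FLOX cells. All palmitic acid samples lay above all vehicle samples, and the HKO samples lay above the FLOX samples with palmitic acid. Ddit3 rose by 1.47 ± 0.12 in HKO cells (limma adjusted p = 1.01e-07) and 1.08 ± 0.12 in FLOX cells (limma adjusted p = 4.07e-06), while the serine synthesis gene Psat1 changed by -0.86 ± 0.037 in HKO cells and -0.91 ± 0.037 in FLOX cells (limma adjusted p = 8.85e-11 and 8.4e-11). The cystine transporter Slc7a11 rose by 1.54 ± 0.15 in HKO cells and 1.31 ± 0.15 in FLOX cells (limma adjusted p = 1.13e-06 and 8.5e-06). With palmitic acid 8 of the 16 were higher in HKO than in FLOX cells and 0 were lower, led by Cebpb (0.68 ± 0.17, limma adjusted p = 0.0183), Atf3 (0.49 ± 0.077, limma adjusted p = 0.000537) and Ddit3 (0.48 ± 0.12, limma adjusted p = 0.0161). With vehicle the count was 1 higher (6.25%), Ddit4 (0.37 ± 0.10, limma adjusted p = 0.0192), and 0 lower, against 4.11% and 7.56% of all tested genes. Atf4 itself passed the interaction threshold narrowly, at 0.23 ± 0.044 (limma adjusted p = 0.0485), and its call was not followed under other settings. Over all tested genes 18 had a larger response in HKO cells, against 3 with the replicate block and 4 without a mean-variance trend. Of 10 tested stress sensors and processing proteases, 4 were higher and 1 lower in HKO cells and 3 and 1 in FLOX cells, led by Creb3l3, a liver relative of ATF6 (1.40 ± 0.064 in HKO cells and 1.62 ± 0.064 in FLOX cells, limma adjusted p = 1.65e-10 and 7.74e-11), and 0 differed between genotypes.

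Some of these genes shared promoter elements. ATF6 and XBP1 are known to act through the ER stress response element (ERSE), written here as CCAAT, any 9 bases and CCACG, through ERSE-II, ATTGG, any base and CCACG, and, for spliced XBP1, through an element with the core TGACGTGG. RefSeq promoter windows of GRCm38.p6, 250 bases before to 50 after the start site, were matched by symbol for 29 of the 36 genes, in 30 windows, and were read on both strands. ERSE was found in 9 of 30 windows (30.0%) and in 39 of all 32851 windows (0.119%). ERSE-II was found in 2 of 30 windows (6.67%), those of Herpud1 and Dnajb11, and in 12 of all windows (0.0365%). The core TGACGTGG was found in 1 of 30 windows (3.33%), that of Kdelr3, and in 222 of all windows (0.676%). The CCACG part, which each of the others holds on one strand, was found in 25 of 30 (83.3%) and 10765 of all windows (32.8%). The genes were taken by name from classes that ATF6 and XBP1 are known to raise. Higher shares than in all windows may follow from that choice, and the difference was not tested. Manf, Hyou1, Derl1, Atf6, Sec61a1, Sec11c and Kdelr2 had no window. The matches are given 5′ to 3′ on the strand of the gene with 10 bases on each side, and capitals mark the fixed letters of the motif, or of its reverse complement. The ERSE matches, shown because ERSE was the most frequent full element in the windows of these genes, were as follows.
Hspa5, chr2:34772015-34772053, plus strand: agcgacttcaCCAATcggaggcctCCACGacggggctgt
Hsp90b1, chr10:86705628-86705666, minus strand: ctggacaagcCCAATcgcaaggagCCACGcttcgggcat
Hsp90b1, chr10:86705523-86705561, minus strand: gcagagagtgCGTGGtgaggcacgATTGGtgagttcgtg
Dnajc3, chr14:118937817-118937855, plus strand: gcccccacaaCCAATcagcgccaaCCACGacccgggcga
Calr, chr8:84847065-84847103, minus strand: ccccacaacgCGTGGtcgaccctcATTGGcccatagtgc
Canx, chr11:50325790-50325828, minus strand: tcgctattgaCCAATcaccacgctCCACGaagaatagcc
Pdia6, chr12:17266481-17266519, plus strand: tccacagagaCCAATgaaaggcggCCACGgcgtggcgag
Creld2, chr15:88819510-88819548, plus strand: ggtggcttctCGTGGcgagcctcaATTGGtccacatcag
Syvn1, chr19:6046522-6046560, plus strand: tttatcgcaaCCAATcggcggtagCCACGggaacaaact
Derl3, chr10:75893232-75893270, plus strand: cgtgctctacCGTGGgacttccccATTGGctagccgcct

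The other elements are shown for the gene that fell and for Kdelr3, the gene with the largest log2 fold change of TPM + 1, ERSE-II of Herpud1 first and the reverse complement of the TGACGTGG core after it.
Herpud1, chr8:94386367-94386397, plus strand: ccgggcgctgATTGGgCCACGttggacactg
Kdelr3, chr15:79516368-79516395, plus strand: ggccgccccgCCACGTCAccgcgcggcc

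**Figure D4:**
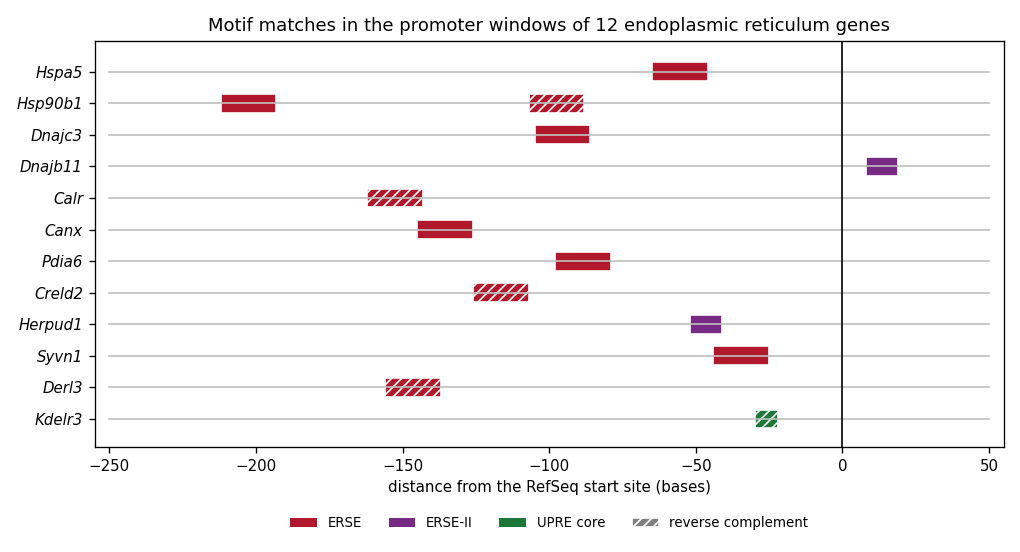
Position of each ERSE (red), ERSE-II (purple) and TGACGTGG core (UPRE, green) in the promoter windows of the 12 genes that hold one, in bases from the RefSeq start site; hatched boxes are matches of the reverse complement. The ERSE matches lie between positions -212 and -26, and Hsp90b1 holds 2.

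With palmitic acid all 9 genes with an ERSE were higher in HKO cells, with log2 fold changes of 0.17 to 1.85 (median 0.70), and 8 of 9 were higher in FLOX cells, with 0.065 to 1.19 (median 0.52). Of the 20 genes whose window did not hold these letters, 13 were higher and 1 lower in each genotype, with medians of 0.32 in HKO cells and 0.26 in FLOX cells. Over all tested genes 29.4% were higher and 13.1% lower in HKO cells, and 23.0% and 11.5% in FLOX cells. The difference between the 9 and the 20 genes was not tested. The 20 genes include Pdia4, Sdf2l1, Dnajb9 and Kdelr3, so a rise was also seen without an exact ERSE in the window. Between genotypes with palmitic acid, 5 of the 9 and 6 of the 20 were higher in HKO cells, where 4.24% of all tested genes were higher. Herpud1, the gene that fell, held ERSE-II, and Dnajb11, which held ERSE-II after its start site, gave no call. A match describes letters in a window and not a bound site. The 250 bases before the start site of Hspa5, the BiP gene, are printed whole as the setting of its ERSE, with the same capitals.
Hspa5, chr2:34771840-34772089, plus strand: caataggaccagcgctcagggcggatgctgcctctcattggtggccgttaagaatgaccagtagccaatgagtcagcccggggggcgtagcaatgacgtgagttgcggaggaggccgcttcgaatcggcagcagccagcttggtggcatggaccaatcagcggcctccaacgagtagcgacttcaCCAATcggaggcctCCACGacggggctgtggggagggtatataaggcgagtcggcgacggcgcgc

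Some of the measured genes share exons with neighbours. In GENCODE M21, 10 of the 36 genes have an exon that overlaps an exon of another gene, 9 of them on the opposite strand. The libraries were stranded, and whether the counting used strand is not given in the sources used here, so reads of such pairs may not be told apart. Kdelr3 overlaps Ddx17, which averaged 25.4 TPM over all samples and changed by 0.15 in HKO cells and 0.38 in FLOX cells with palmitic acid. The part of Ddx17 in the values of Kdelr3 was not tested. Sec61a1 overlaps the antisense gene Gm44170, which averaged 11.6 TPM and changed by 1.00 in HKO cells and 0.23 in FLOX cells. Manf overlaps Dcaf1 and, on its own strand, Rbm15b, at 8.74 and 2.97 TPM. The partners of Derl2, Dnajb9, Hsp90b1, Pdia3, Pdia4, Pdia6 and Syvn1 that have a value averaged 0 to 15.3 TPM.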

How the data were processed

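RNA-seq was made from 16 mouse primary hepatocyte samples with a stranded total RNA kit, per the labels' protocols. The authors deposited TPM values for 55416 Ensembl genes at 2 decimals, made with RSEM 1.3.3 per the submitters' processing notes, and they were used as deposited. Those notes list the human build GRCh38.p13, while the identifiers are mouse. For the aligner, annotation and strand setting the sources used here give nothing. Without read numbers, counting intervals could not be made. Symbols were matched for 52083 identifiers (94%). In all, 2 identifiers carry the symbol Ddit3, and the one with values above 0 was used.

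Genes with at least 1 TPM in at least 4 of 16 samples were tested (11858). log2(TPM + 1) values were fitted with limma 3.58.1 in R 4.3.3, with 1 mean per group over all 4 groups and a mean-variance trend, and Benjamini-Hochberg adjustment ran over all tested genes in each of 5 comparisons. Fold changes are on the log2(TPM + 1) scale, which understates changes of low genes. Genes described in full are the representatives of each role and the 5 with the largest change in each direction past the threshold; for other lists, the 3 with the largest. The members, lists and tests were chosen with earlier results of these data known. The alternatives were other pseudocounts, filters and scalings, no trend, fewer groups, a replicate block, leaving out each sample, and leaving out both FLOX samples numbered 1. The block was the replicate number within each genotype for the palmitic acid responses and the interaction. For HKO against FLOX cells it was the number across genotypes.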

Additional observations from a re-analysis of the deposited data

Results flagged for a closer look

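Of 144 sets of 4 samples, 36 genes in 4 groups, 11 held a sample whose distance from its nearest neighbour took up most of the range of its group by Dixon's test, which flags about 1 set in 20 by chance. Pdia6 stood apart in HKO palmitic acid replicate 1 (147.08 TPM), Calr in FLOX palmitic acid replicate 1 (302.99 TPM) and Ssr1 in FLOX palmitic acid replicate 1 (44.20 TPM). Among the vehicle samples, Manf stood apart in HKO replicate 4 (65.75 TPM), Dnajb9 in HKO replicate 2 (19.01 TPM) and Derl2 in FLOX replicate 3 (61.83 TPM). The low-level genes Derl3 and Kdelr3 made up 5 of the 11. Derl3 read 4.38 TPM in HKO vehicle replicate 4 and 0.80 TPM in FLOX vehicle replicate 2. Kdelr3 read 11.00 TPM in HKO palmitic acid replicate 2, 13.79 TPM in FLOX palmitic acid replicate 3 and 1.48 TPM in FLOX vehicle replicate 2.

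A larger palmitic acid response in HKO than in FLOX cells, tested as the interaction in limma, was found for 4 genes. On the log2 scale the difference in response was 0.361 for Hspa5, 0.426 for Hsp90b1, 0.356 for Pdia4 and 0.660 for Creld2, with adjusted p = 0.015, 0.015, 0.0497 and 0.0115. All 4 calls ended with the replicate number within each genotype as a block, and that of Pdia4 also ended when any single sample was left out.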

How the results depend on the processing

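Over 25 alternatives and 180 combinations of gene and comparison, 4374 of 4464 values kept their side of the threshold and, where past it, their direction. The call was lost in 70 and gained in 20, and 0 reversed, where a value not past the threshold counts as having no direction. Of 73 called combinations, 54 kept their call under every alternative run. With quantile normalization 2 genes in place of 1 were lower with palmitic acid in HKO cells, with Sel1l added, and 2 in place of 1 in FLOX cells, with Atf6 added; the cause was not tested. The interaction gave 2 genes with median-ratio scaling, 1 without the mean-variance trend and 3 without any 1 sample, in place of 4. Without any 1 sample, palmitic acid samples were higher for 27 to 28 genes in HKO cells and for 23 to 27 in FLOX cells, with 11 to 13 higher in HKO than in FLOX cells with palmitic acid and 2 to 3 with vehicle. With the replicate number as a block, limma gave 0 genes in the interaction (11 at an unadjusted p below 0.05, as without the block), so that all 4 calls ended (adjusted p = 0.111 for Creld2, 0.197 for Hsp90b1, 0.299 for Hspa5 and 0.348 for Pdia4), and the other comparisons 27, 23, 12 and 3 higher. Deviations of samples with the same number correlated at -0.15 to 0.0861 between treatments and -0.112 to 0.112 between genotypes. Samples with different numbers gave -0.106 to 0.134 and -0.12 to 0.143. Samples of the same number were thus no more alike, but these values cannot tell whether they shared a mouse or culture. Depth is unknown, so the precision of low genes such as Derl3 and Kdelr3 rests on the spread of 4 samples.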
